A study of Sus scrofa with 6 samples.

Results

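miR-210, listed as ssc-miR-210, is 1 of 326 mature pig microRNAs (miRNAs, small RNAs that guide repression of messenger RNAs) with a value in 6 small RNA libraries of denuded oocytes, that is, oocytes stripped of their cumulus cells. It was chosen by name with its values in these libraries known, so its levels, the comparison of its groups and its dependence on single libraries are given as a description with no test. The oocytes came from the ovaries of prepubertal gilts collected at an abattoir. Oocytes of the LO group were drawn with a 20-gauge needle and 10 mL syringe out of large follicles, 3 to 6 mm in diameter. Those of the SO group were drawn with a 23-gauge needle and 5 mL syringe out of small follicles, below 2 mm. Each group had 3 libraries, called biological replicates by the submitters; follicle size, needle and syringe differed together and cannot be told apart. How many oocytes or gilts stand behind a library is not stated, and messenger RNAs that define the oocyte were not analysed here. By its title, the study set miRNA expression beside the competence of oocytes to develop.

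miR-210 is the miRNA most widely known for its induction by hypoxia-inducible factor (HIF), the transcription factor that accumulates when oxygen is low. Among its known targets is the iron-sulfur cluster scaffold ISCU, through which it lowers mitochondrial respiration. The granulosa layer and the oocyte of an ovarian follicle have no blood vessels of their own, so oxygen reaches them by diffusion.

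The mature sequence is shown because it decides which reads can be counted as miR-210. It is given 5′ to 3′ in DNA letters as deposited, with the seed, bases 2 to 8, in capitals. The seed is the part that pairs with target messenger RNAs.
miR-210: cTGTGCGTgtgacagcggctga
The 22 bases hold 14 G or C (63.6%), against a median of 47.6% over the listed miRNAs. No other listed miRNA (0) had the same seed, nor the same bases 2 to 7. The listed sequence nearest to it, miR-4334-5p, was 8 single-base edits away and had 0 reads in the 6 libraries. Only 1 row carried the name miR-210, with no arm suffix. In the pig gene table of RefSeq assembly Sscrofa11.1, the gene MIR210 lies between RASSF7 and PHRF1 and inside 0 other genes.

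The libraries were shallow. The listed miRNAs together had 7755 to 42541 reads in LO and 44964 to 55230 in SO, so each LO library was less deeply sequenced than each SO library. Values are reads per 1000000 reads (RPM) of the total that the authors used for each library, and 1 read was worth 0.702 to 2.17 RPM in LO and 0.457 to 0.522 RPM in SO. Intervals given below are 95% and cover counting error only, exact Poisson for reads and RPM and exact Clopper-Pearson for shares. In such bulk samples, fewer cells of a type and less RNA per cell cannot be told apart.

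miR-210 was high in LO replicate 1, intermediate in LO replicate 3 and low in the other 4 libraries. LO replicate 1 held 56 reads, or 97.2 RPM (interval 73.5 to 126.3). LO replicate 3 held 47 reads, or 33.0 RPM (24.2 to 43.9). LO replicate 2 held 3 reads, or 6.50 RPM (1.34 to 19.0). The LO libraries thus spanned the lowest and the highest value of the study.

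The SO libraries lay close together. SO replicate 1 held 24 reads, or 12.5 RPM (8.03 to 18.6). SO replicate 2 held 19 reads, or 9.90 RPM (5.96 to 15.5). SO replicate 3 held 18 reads, or 8.23 RPM (4.88 to 13.0). The groups overlapped, since LO replicate 2 lay below every SO library on this scale while the other 2 LO libraries lay above every SO library.

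In the order of levels, LO replicate 1 exceeded LO replicate 3 by a ratio of 2.95 (interval 1.96 to 4.44). LO replicate 3 exceeded the pooled reads of the 3 SO libraries, 61 reads at 10.1 RPM, by a ratio of 3.26 (2.18 to 4.85). LO replicate 1 exceeded them by a ratio of 9.60 (6.56 to 14.0). LO replicate 2 stood at a ratio of 0.642 to the pooled SO reads, with an interval of 0.129 to 1.97, so at this depth its level could not be distinguished from theirs. Among the SO libraries the ratios of neighbours were 1.27 (0.664 to 2.44) and 1.20 (0.598 to 2.43), and neither pair differed beyond counting error.

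The depth of LO replicate 2 limits what can be said of it. At the mean SO level it would have been expected to hold 4.72 reads, at the level of LO replicate 3 15.2 reads, and at that of LO replicate 1 44.9 reads. It held 3. LO replicate 1 exceeded it by a ratio of 14.96 (4.86 to 74.7), and LO replicate 3 by a ratio of 5.08 (1.63 to 25.5).

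**Figure D1:**
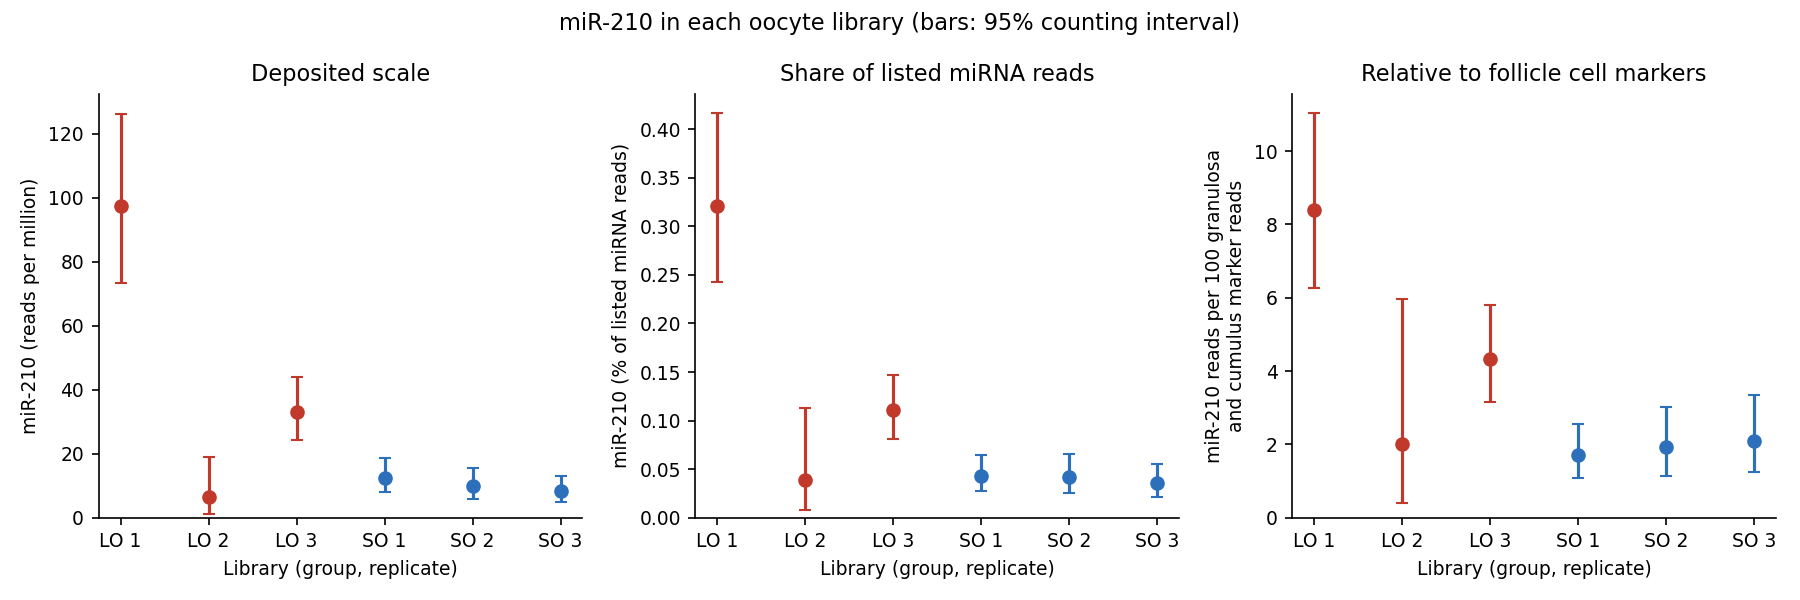
miR-210 in each library (x axis) as RPM on the deposited scale, as a percentage of listed miRNA reads, and as reads per 100 granulosa and cumulus marker reads (y axes); LO red, SO blue, points are single libraries and bars the 95% counting interval. LO replicates 1 and 3 stand above the 3 SO libraries in each panel, and LO replicate 2, with 3 reads, does not.

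The deposited scale counts reads beyond the listed miRNAs in its total, so miR-210 was also expressed as a share of listed miRNA reads. It took 0.321% (0.242 to 0.416) in LO replicate 1 and 0.110% (0.0812 to 0.147) in LO replicate 3. It took 0.0387% (0.00798 to 0.113) in LO replicate 2, which fell within the SO values of 0.0435%, 0.0423% and 0.0353%. The place of LO replicate 2 below all SO libraries therefore held on the deposited scale and not on this one. Listed miRNAs made up 1.68% of the authors' total in LO replicate 2, against 2.33% to 3.03% in the other 5 libraries.

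Set against abundant miRNAs of the same library, the order was similar. Per 1000 reads of miR-205, the most abundant miRNA of these oocytes, miR-210 had 11.6, 1.06 and 2.91 reads in LO replicates 1, 2 and 3. In SO replicates 1, 2 and 3 it had 1.18, 1.11 and 0.819. Per 1000 reads of miR-16, a miRNA that acts on cell cycle genes, it had 24.1, 2.95 and 8.96 in LO and 3.35, 3.55 and 3.09 in SO. By either ratio LO replicates 1 and 3 were above every SO library and LO replicate 2 was not.

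miR-210 was a mid-ranking miRNA. It was 40th of the 326 listed miRNAs in LO replicate 1, 59th in LO replicate 3 and 78th, tied with 14 others, in LO replicate 2. In SO replicates 1 to 3 it was 86th, 80th and 81st. By group mean it was 54th in LO, next to miR-423-3p at 46.0 ± 44.7 RPM and miR-143-3p at 43.3 ± 22.6 RPM (SD, n = 3). It was 86th in SO, next to miR-15b at 11.0 ± 4.43 RPM and miR-424-5p at 9.85 ± 5.07 RPM (SD, n = 3). In both groups these neighbours differed from it by less than the spread between libraries.

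The spread of miR-210 itself differed between the groups in size. Its LO libraries gave 45.6 ± 46.7 RPM and its SO libraries 10.22 ± 2.17 RPM (SD, n = 3 per group). On the scale of log2(RPM + 1) its SD was 1.87 in LO, against a median SD of 0.731 over the 104 miRNAs with enough reads to test, and 0.277 in SO, against a median of 0.361. In LO only miR-339, miR-34a and miR-361-3p had a larger SD, which made miR-210 4th of 104. In SO it was 73rd of 104. In LO replicate 2, miR-339 and miR-361-3p had 0 RPM and miR-34a 2.17 RPM, below the 6.50 RPM that 3 reads give there. The SD of miR-210 in LO also rests in part on its 3 reads in that library.

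The same was seen against counting error. The index of dispersion, the spread of reads over that expected from counting alone, was 28.5 for miR-210 in LO and 0.941 in SO, so its SO reads varied about as counting alone would give. The medians over the 104 miRNAs were 7.71 in LO and 4.84 in SO; this index grows with the number of reads, and miR-210 ranked 17th in LO and 90th in SO. Scaled to listed miRNA reads, the indices of miR-210 were 21.4 and 0.245 and the SD in LO was 1.52, 7th of 104. The difference between the groups in spread was not tested, with 3 libraries in each.

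**Figure D2:**
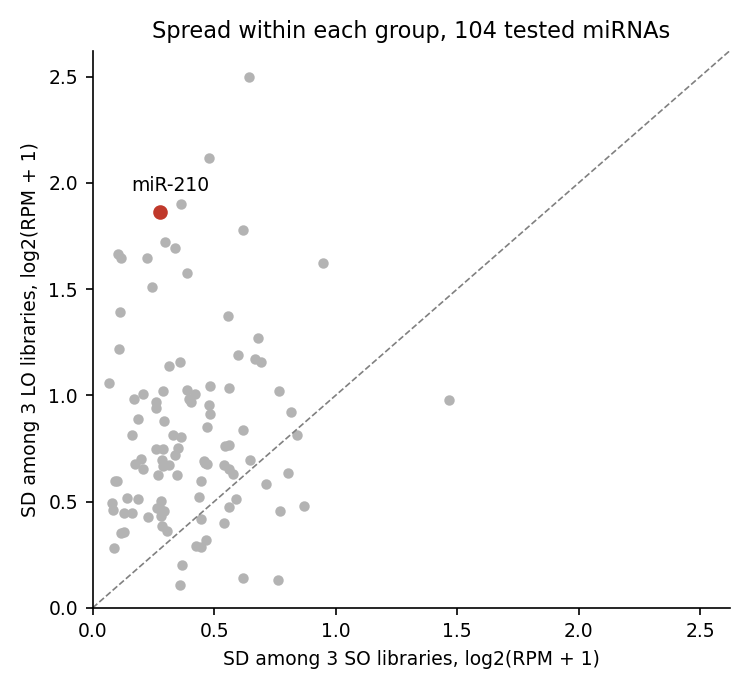
SD of log2(RPM + 1) among the 3 SO libraries (x axis) and among the 3 LO libraries (y axis) for each of the 104 tested miRNAs (points), with the line of equal SD dashed and miR-210 in red. miR-210 lies far above the line, with an SD of 1.87 in LO and 0.277 in SO.

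Other miRNAs also differed between the LO libraries. Between LO replicates 1 and 2 the median difference of the 104 miRNAs was 1.33 on the log2(RPM + 1) scale and that of miR-210 was 3.71, the 3rd largest. After scaling to listed miRNA reads the median was 0.53 and miR-210 stood at 3.05, 6th largest. In 46 of the 104 tested miRNAs (44.2%) LO replicates 1 and 3 were both above every SO library, as for miR-210. Group ranges were apart for 4 of the 104, and miR-210 was not among them.

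The LO against SO comparison asks which miRNAs differ with follicle size. The mean of miR-210 was higher in LO by a ratio of 4.46, and by 1.40 on the log2(RPM + 1) scale, the largest difference of the 104 tested miRNAs. This is the value for which miR-210 was chosen, so nothing is read from it. The same fit placed the median of the 104 miRNAs at 0.29, and with TMM scaling, which centres the libraries on the bulk of their miRNAs, at 0.05. miR-210 stood 1.11 above the median on the deposited scale and 1.12 above it with TMM.

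Across all features, limma with Benjamini-Hochberg adjustment on log2(RPM + 1) called 0 of 104 miRNAs (0%) at a false discovery rate (FDR) of 0.05, and 4 had an unadjusted p under 0.05. edgeR's quasi-likelihood test with TMM on the recovered reads called 2 higher in LO (1.92%), miR-184 and miR-210, and 0 lower, with 13 at an unadjusted p under 0.05. DESeq2 on the same reads also called 2 (1.92%), miR-152 and miR-184. The comparison of groups chose miR-210, so its place among these calls is no support for it.

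The difference rested on single LO libraries for its size. Without LO replicate 1 the ratio of mean RPM went from 4.46 to 1.93 and the log2 difference from 1.40 to 0.53, 7th largest of 104. Without LO replicate 2 the ratio was 6.37 and the log2 difference 2.38, and the group ranges no longer overlapped, with 33.0 RPM as the lowest LO and 12.5 RPM as the highest SO value. Without LO replicate 3 the values were 5.08 and 1.29. Leaving out any SO library moved the ratio only between 4.06 and 5.03.

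The median of all tested miRNAs moved with the same libraries. It was -0.06 without LO replicate 1 and 0.62 without LO replicate 2, so miR-210 stood 0.59 and 1.76 above it. Scaled to listed miRNA reads, a setting added after the data were seen, the difference of miR-210 was 0.70 without LO replicate 1, 2.22 without LO replicate 2 and 1.47 without LO replicate 3.

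**Figure D3:**
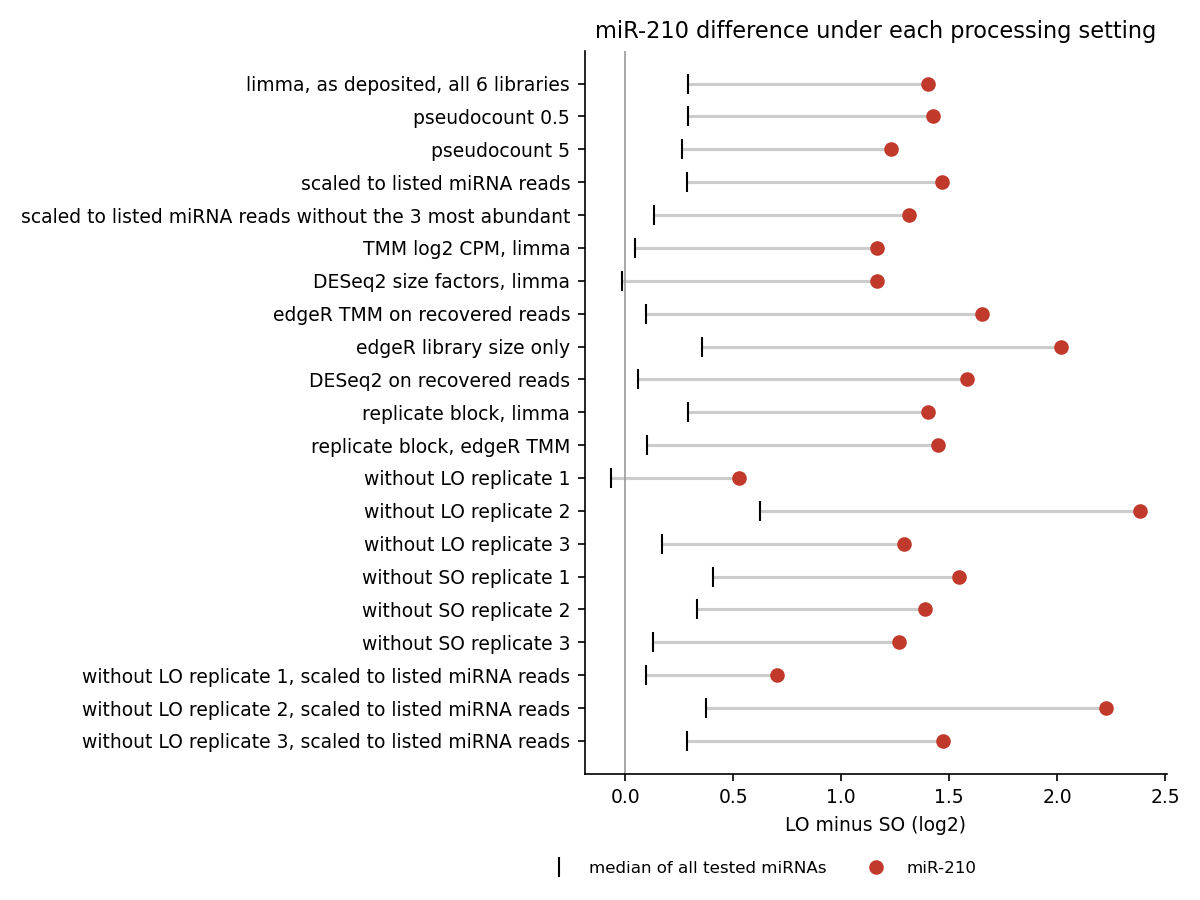
Difference of miR-210, LO minus SO on the log2 scale (x axis), under each processing setting (rows), as red points, beside the median of all tested miRNAs (black ticks). Every point is to the right of its tick, and the lowest and highest points are 0.53, with LO replicate 1 left out, and 2.38, with LO replicate 2 left out.

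Markers of other cells were followed beside these levels. Granulosa and cumulus markers (miR-21, miR-31, miR-132, miR-202 and miR-212; 6 rows, 0 of them without a read) took 3.82%, 1.93% and 2.56% of listed miRNA reads across LO replicates 1, 2 and 3. In SO replicates 1, 2 and 3 they took 2.55%, 2.195% and 1.68%. The LO libraries thus had the same order for these markers as for miR-210, and so did the SO libraries. The ranges overlapped between groups, 1.93% to 3.82% in LO and 1.68% to 2.55% in SO. miR-31 had the most reads of them in each LO library, and miR-21 in SO replicates 1 and 3.

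By point values, the ratio of miR-210 to these markers was similar in LO replicate 2 and the SO libraries and higher in LO replicates 1 and 3. Per 100 granulosa and cumulus marker reads it had 8.40 reads (6.27 to 11.0) in LO replicate 1, 2.00 (0.408 to 5.96) in LO replicate 2 and 4.32 (3.16 to 5.79) in LO replicate 3. In SO replicates 1 to 3 it had 1.70 (1.09 to 2.54), 1.93 (1.15 to 3.02) and 2.10 (1.24 to 3.34). SO replicate 1 and LO replicate 3 had nearly the same marker share, 2.55% and 2.56%, with miR-210 at 0.0435% and 0.110% of listed miRNA reads. These libraries were picked after their values were seen. Their markers differed in make-up, with miR-21 leading in SO replicate 1 and miR-31 in LO replicate 3. The part of follicle cells in the level of miR-210 was not tested. miR-21 and miR-31 make up most of the list and are also in the hypoxia-related lists below.

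The other marker lists were small. Theca, stroma and smooth muscle markers took 0.252% to 0.438% in LO and 0.194% to 0.349% in SO, led by miR-143-3p, with miR-214 at 0 reads. Muscle markers, 59 reads in all, took 0.0329% to 0.0774% in LO and 0.0157% to 0.0222% in SO, with miR-133b and miR-133a-5p at 0 reads. These ranges rest on few reads. The leading marker, miR-1, had 5, 3 and 6 reads in LO replicates 1, 2 and 3, and 8, 5 and 5 in SO replicates 1, 2 and 3. The endothelial marker miR-126 took 0.0306% to 0.0645% in LO and 0.0137% to 0.0489% in SO, led by its 3p arm.

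Erythroid markers, led by miR-451, took 0.0141% to 0.0258% in LO and 0.00667% to 0.0157% in SO, 30 reads in all. Leukocyte markers, led by miR-142-3p, took 0.00940% to 0.0387% in LO and 0.00667% to 0.194% in SO, where SO replicate 1 alone was above 0.0387%. miR-223, also fixed as a leukocyte marker, was not analysed here. The liver miRNA miR-122 took 0.0258% to 0.0658% in LO and 0.00890% to 0.0903% in SO. The part of these cell types in the level of miR-210 was not tested.

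The other miRNAs reported to respond to hypoxia were taken as a list of 15 names, of which miR-26b was not analysed here. The list covered 19 rows, 16 of them with a read and 10 tested. By limma 0 of the 10 were called in either direction, beside 0% of all tested miRNAs. By edgeR with TMM 0 were called, beside 1.92% of all tested miRNAs higher in LO. Their median log2 difference was 0.39, beside 0.29 for all tested miRNAs, and with TMM 0.15 beside 0.05. On the deposited scale 9 of the 10 had higher means in LO, and with TMM 7. All tested miRNAs leaned the same way at their median, and 6 of the 10 lay above that median on either scale.

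miR-23a, miR-23b and miR-24-3p, made from 2 clusters together with miR-27, had log2 differences of 0.81 (SE 0.71), 0.54 (SE 0.55) and 0.64 (SE 0.56). The level of miR-23a was 14.8 ± 9.72 RPM in the LO and 8.09 ± 5.69 RPM in the SO libraries (SD, n = 3). miR-27b-3p was at 0.24 (SE 0.51) and turned to -0.0036 with TMM. miR-181a, a miRNA that tunes lymphocyte receptor signalling, had a level of 26.2 ± 25.3 RPM in LO and 11.4 ± 2.75 RPM in SO, a log2 difference of 0.60 (SE 0.66). Like miR-210 it was uneven within LO and even within SO. Its 4.33 RPM in LO replicate 2 was below the 6.50 RPM that 3 reads give there, so its unevenness rests in part on very few reads. The median SD over the 104 tested miRNAs was also larger in LO, at 0.731 against 0.361 in SO on the log2(RPM + 1) scale.

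miR-103 and miR-107, which lie within introns of pantothenate kinase genes and differ by at most 1 base over their first 20, had differences of 0.33 (SE 0.44) and 0.45 (SE 0.61). Reads may have been shared between these names, as between miR-23a and miR-23b. By the same measure this holds for miR-27b-3p with miR-27a, miR-18a with miR-18b, and miR-17-5p with miR-20b and miR-106a. Of miRNAs named below, it also holds for let-7a with let-7c, let-7e and let-7f, and for miR-30a-3p with miR-30e-3p. miR-26a, which represses the histone methyltransferase EZH2, was at 0.27 (SE 0.46). miR-21, abundant in granulosa cells, was at 0.13 (SE 0.47) and at -0.12 with TMM. miR-424-5p, known to stabilise HIF in endothelial cells by repressing the ubiquitin ligase scaffold CUL2, was at -0.25 (SE 0.73) on the deposited scale and -0.49 with TMM.

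miRNAs that act on the HIF machinery itself formed the other list, with 11 names, 15 rows, 14 of them with a read and 7 tested. By limma 0 of the 7 were called in either direction, beside 0% of all tested miRNAs, and by edgeR with TMM also 0, beside 1.92% higher in LO. Their median log2 difference was 0.36, beside 0.29 for all tested miRNAs, and with TMM 0.12. miR-31, which represses the HIF inhibitor FIH, had 310 ± 164 RPM in the LO libraries and 175 ± 51.2 RPM in the SO libraries (SD, n = 3), a log2 difference of 0.71 (SE 0.48). miR-107, which represses the HIF partner ARNT, and miR-424-5p belong to both lists.

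Members that repress HIF1A had differences smaller than their SEs. miR-20a was at 0.36 (SE 0.52), miR-138 at 0.26 (SE 0.59) and miR-17-5p at 0.15 (SE 0.64), and miR-17-5p was at -0.08 with TMM. Of miR-199a, only the 3p arm was tested, at 0.51 (SE 0.63); the 5p arm, the one known to repress HIF1A, had 7 reads over the 6 libraries. miR-18a, miR-20b, miR-155-5p and miR-429 had 27, 3, 32 and 1 reads over the 6 libraries and were not tested.

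The list medians depended on which LO library was left out. The hypoxia list had a median of 0.01 without LO replicate 1, where all tested miRNAs had -0.06. Without LO replicate 2 it was 0.89, beside 0.62, and limma called 2 of the 10, miR-103 and miR-181a, both higher in LO, beside 17.3% of all tested miRNAs (18 of 104). In the same fit the HIF list had a median of 0.43, below the 0.62 of all tested miRNAs, and 1 of its 7 members, miR-31, was called higher in LO. With LO replicate 2 left out and values scaled to listed miRNA reads, 4 of the 104 were called higher in LO (3.85%), and 0 members of either list were among them. Besides miR-210, whose call is a description since it was chosen on this contrast, these were miR-152 with let-7c and also miR-184, named after their values were seen. The hypoxia list then had a median of 0.64 and the HIF list one of 0.20, beside 0.37 for all tested miRNAs.

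**Figure D4:**
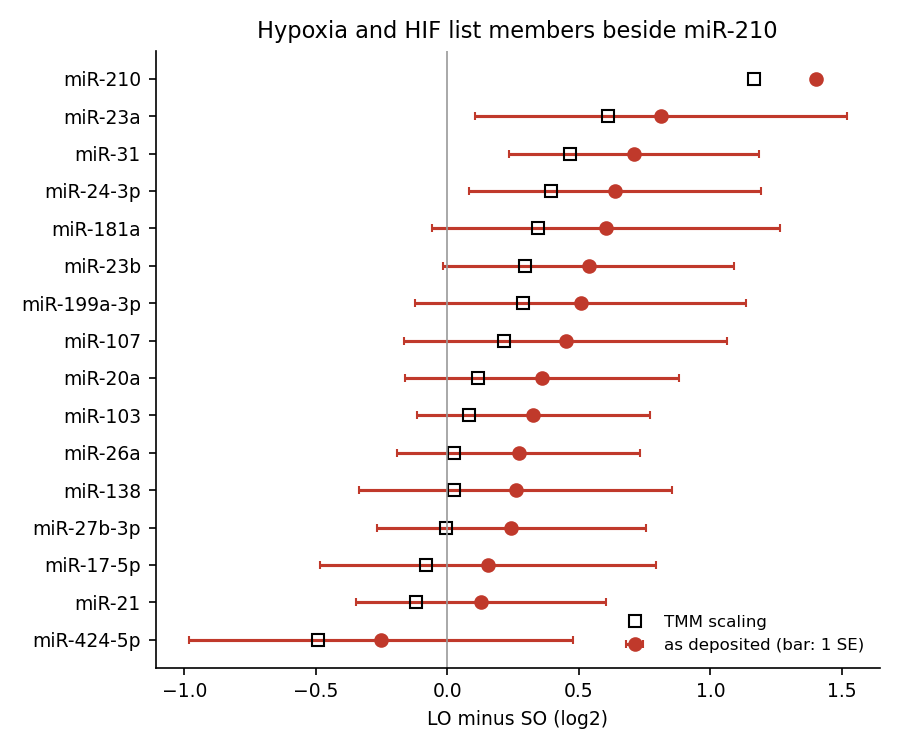
LO minus SO on the log2 scale (x axis) for each tested member of the hypoxia and HIF lists and for miR-210 (rows), as deposited (red, bar 1 SE of the limma fit, none drawn for miR-210) and with TMM scaling (open squares). miR-210 is at 1.40 and the members run from -0.25 for miR-424-5p to 0.81 for miR-23a.

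The miRNAs whose profiles were most like that of miR-210 were taken by Pearson correlation of log2(RPM + 1) over the 6 libraries, as a description; the points share library, depth and scaling. The 6 highest were miR-339-5p (r = 0.982), miR-140-3p (0.974), miR-98 (0.967), miR-191 (0.966), let-7a (0.961) and miR-423-3p (0.957). High values were common, with a median r of 0.811 over the other tested miRNAs and 31 of them above 0.9. Scaled to listed miRNA reads the median was 0.590 and 6 were above 0.9. Their sequences are shown because none has the seed of miR-210 and each is 13 or 14 single-base edits away from it. miR-98 and let-7a share a seed, that of the let-7 family.
miR-339-5p: tCCCTGTCctccaggagctcac
miR-140-3p: tACCACAGggtagaaccacggac
miR-98: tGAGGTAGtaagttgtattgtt
let-7a: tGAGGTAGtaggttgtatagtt
miR-191: cAACGGAAtcccaaaagcagctg
miR-423-3p: aGCTCGGTctgaggcccctcagt

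miR-339-5p had 39.9, 4.33 and 21.1 RPM across LO replicates 1, 2 and 3, beside 7.83, 9.38 and 6.40 RPM across SO replicates 1, 2 and 3. As for miR-210 on the deposited scale, LO replicate 2 was the lowest library and the other LO libraries the highest. The 4.33 RPM of miR-339-5p in LO replicate 2 was below the 6.50 RPM that 3 reads give there, so this value rests on very few reads. A row named miR-339 holds the same sequence without its last base, so reads may have been split between the names. miR-4334-3p also differs from miR-339-5p by at most 1 base over the first 20. miR-140-3p, made from a cartilage-associated precursor, had 93.8, 13.0 and 44.9 RPM across the LO libraries, beside 25.6, 26.1 and 22.4 RPM across the SO libraries. miR-423-3p had 95.5, 8.67 and 33.7 RPM across the LO libraries, beside 17.2, 18.8 and 20.1 RPM across the SO libraries, and so matched miR-210 closely in LO and lay above it in SO.

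The likeness leaned on LO replicates 1 and 3, the libraries farthest from the median of miR-210. Without both, r over the remaining 4 libraries was 0.821 for miR-339-5p, 0.862 for miR-140-3p, 0.843 for miR-98, 0.587 for miR-191, 0.869 for let-7a and 0.665 for miR-423-3p. Scaled to listed miRNA reads over all 6 libraries, r was 0.973 for miR-339-5p, 0.970 for miR-140-3p and 0.934 for miR-423-3p, and 0.798 for let-7a. Of the 6 names, 3 were again among the 6 highest with that scaling and 0 by Spearman correlation. Their Spearman values were still high, at 0.943 for miR-339-5p, miR-140-3p, miR-98 and let-7a, 0.886 for miR-191 and 0.771 for miR-423-3p. Other miRNAs had equal or higher ones.

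At the other end were miR-664-3p (r = -0.412), miR-30a-3p (-0.372) and miR-183 (-0.324). miR-183, a sensory-lineage miRNA made with miR-182, had 52.1, 56.3 and 90.6 RPM across the LO libraries, beside 101.3, 73.5 and 88.2 RPM across the SO libraries. Its lowest values were in LO replicates 1 and 2, where miR-210 was highest and lowest. Scaled to listed miRNA reads r was -0.939 for miR-183, and the lowest value was that of miR-182, at -0.983, against -0.255 on the deposited scale; miR-182 was singled out after its value was seen. Without LO replicates 1 and 3 the r of miR-183 was 0.827.

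**Figure D5:**
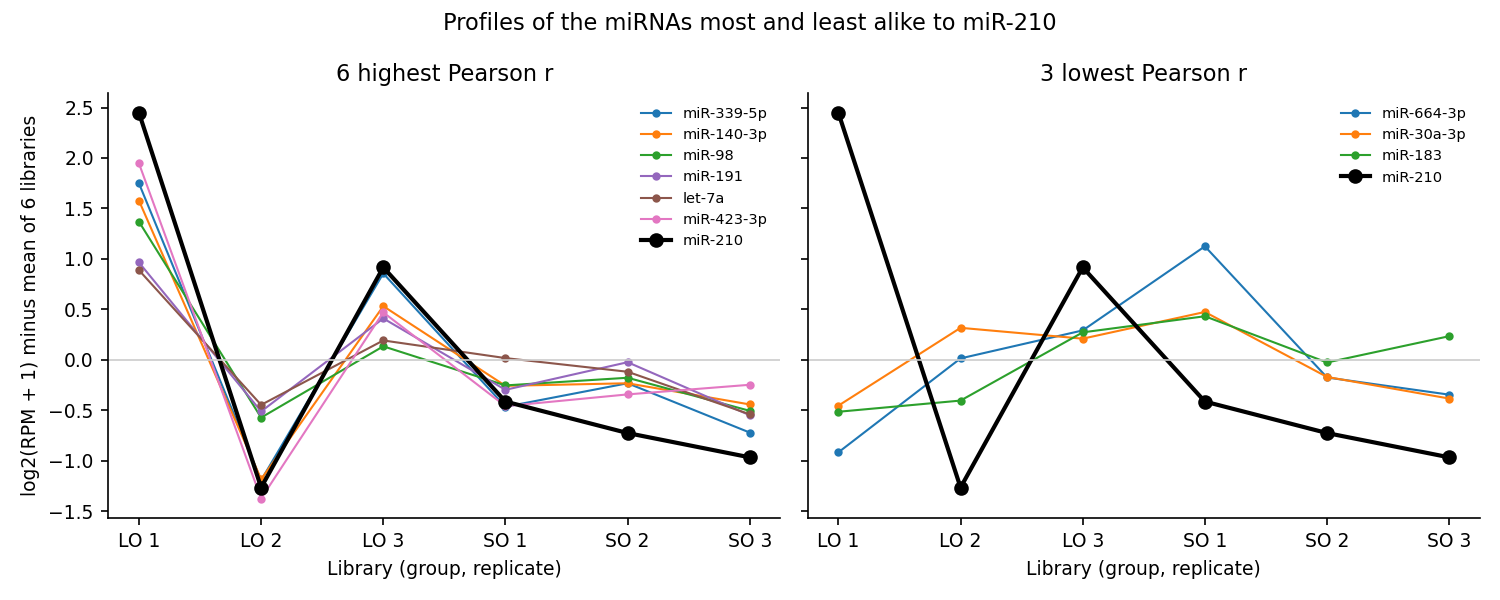
log2(RPM + 1) minus the mean of the 6 libraries (y axis) in each library (x axis) for miR-210 (black) with the 6 miRNAs of highest Pearson r (left) and the 3 of lowest r (right); lines only join the points of a miRNA, since replicates have no order. On the left each profile peaks in LO replicate 1 with r from 0.957 to 0.982, and on the right LO replicate 1 is not the peak of any of the 3.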

How the data were processed

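RNA was isolated with mirVana and libraries were built with the QIAseq miRNA kit, per the labels' protocols. Tools named in the submitters' processing notes, without roles, are cutadapt, bcl2fastq, edgeR and Bowtie2 2.2.2, and the genome build is Sscrofa10.2. Whether molecular identifiers were used is not stated there. Each deposited table gives 1 value per mature miRNA under a TPM header. The values were read as RPM set by the authors, since within each library all are whole multiples of 1 step: 100% of the values above 0 gave whole reads, within 0.01 read.

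The 104 miRNAs that passed edgeR's filterByExpr on these reads were fitted with limma 3.58.1 (R 4.3.3, intensity trend) on log2(RPM + 1), with group as the only term. edgeR 4.0.16 and DESeq2 1.42.0 on the recovered reads were alternatives, as were other scalings, pseudocounts of 0.5 and 5 RPM, no filter, the replicate number as a block and leaving out each library. The limma and edgeR fits were also run on simulated data, and the DESeq2 fit was not. The simulation gave all miRNAs the same dispersion and had no library effects. It therefore does not show how the fits perform on libraries as uneven as these. Replicates of a group differed beyond sampling noise, with a chi-square of 2.87 to 19.9 per degree of freedom. The p-values set the difference between groups against the spread between these libraries, with variance estimates shared across the tested miRNAs.

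miR-210 and all lists were chosen with earlier results of these data known. Named miRNAs were the nearest sequence, neighbours in rank, the 6 most and 3 least alike by Pearson r, tested list members and leading markers. Others named, such as miR-205, miR-16, miR-182, miR-184, miR-152 and miR-339, were chosen after their values were seen.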

Additional observations from a re-analysis of the deposited data

How the results depend on the processing

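The difference of miR-210 between LO and SO was positive in each of 20 alternatives, from 0.53 to 2.38 on the log2 scale. The extremes were without LO replicate 1 and without LO replicate 2. With all 6 libraries the difference ran from 1.16 with TMM in limma to 2.02 in edgeR with library size only. These fits reuse the libraries on which miR-210 was chosen, so their shared sign is a description and no support for it. The number of miRNAs past FDR 0.05 was 0 by limma and 2 in edgeR with TMM and in DESeq2, and it ran from 0 to 18 when 1 library was left out, with 18 without LO replicate 2. It was 4 without LO replicate 2 when values were also scaled to listed miRNA reads, an alternative added after the data were seen, and 0 in the other alternatives run. The list medians were positive in each of 21 alternatives, from 0.01 to 0.89 for the hypoxia list and from 0.08 to 0.57 for the HIF list. Their sign alone does not set the lists apart, since the median of all tested miRNAs moved with them. That median was -0.06 without LO replicate 1, where the hypoxia list had 0.01. Without LO replicate 2 it was 0.62, below the hypoxia list at 0.89 and above the HIF list at 0.43.

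Replicate numbers are shared between the groups. Deviations from the group mean had r = -0.340, -0.222 and 0.0803 over 104 miRNAs between same-numbered libraries 1 to 3. Between libraries of unlike number r ran from -0.293 to 0.435. With 3 libraries per group centred on their mean, these values constrain each other and cannot exclude pairing. The numbers were not taken as pairs in the main fit. With the replicate number as a block the difference of miR-210 was 1.40 in limma and 1.45 in edgeR, the latter against 1.65 without the block, and 0 miRNAs were called by either. The medians were 0.39 and 0.17 for the hypoxia list and 0.36 and 0.11 for the HIF list. Of the 6 miRNAs most alike to miR-210, 3 were shared with the 6 highest after scaling to listed miRNA reads and 0 with those by Spearman correlation. The Spearman values of the 6 ran from 0.771 to 0.943.

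Depth limits LO replicate 2 most. A count of 0 there allows up to 6.50 RPM, taking 3 reads as the limit, and its 3 reads of miR-210 lie at that limit.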
